A study of Mus musculus with 11 samples.

Results

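Phase II enzymes join a water-soluble group to drugs, hormones, bilirubin and bile acids, and here they were taken as every gene that the array names as a glutathione S-transferase (Gsta, Gstk, Gstm, Gsto, Gstp, Gstt or Mgst with a number, together the GST class), a UDP-glucuronosyltransferase (Ugt1 to Ugt3, UGT) or a sulfotransferase (Sult1 to Sult5, SULT). The choice was made by name alone and used no measured value. It gave 45 of the 27962 gene names on the array, with 61 of 41174 probes. The GST class had 21 genes, the UGT class 13 and the SULT class 11, and all 45 were among the 16704 genes that passed the filter on dim probes.

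RNA from normal mouse liver was measured at embryonic day 14 (E14, 3 arrays), embryonic day 18 (E18, 3 arrays), postnatal day 5 (P5, 2 arrays, replicates 2 and 3) and postnatal day 56 (P56, 3 arrays) on Agilent arrays with 2 colours. Cy5 labelled the sample and Cy3 a commercial adult mouse liver RNA that was the same on every array, so a log2 ratio of 0 means the level of that adult pool. No allele or agent is named for any stage, and the sex of the animals is not given. The labels name liver as the source, but also hepatoblasts at E14, immature hepatocytes at E18 and hepatocytes at P5 and P56, and which of whole liver or isolated cells an array holds was not settled here.

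Glutathione S-transferases attach glutathione to electrophiles. UDP-glucuronosyltransferases sit in the endoplasmic reticulum and attach glucuronic acid from UDP-glucuronic acid, as in the conjugation of bilirubin by Ugt1a1. Sulfotransferases are cytosolic and attach sulfate from PAPS to phenols, steroids, amines and bile acids, and in the liver many of these enzymes are made by hepatocytes.

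Of the 45 genes, 39 had a Cy5 signal well above background on each of the 11 arrays. The exceptions were Gsto2 and Mgst2, each not so on 1 P56 array, and Sult1e1, Sult2b1, Sult3a1 and Ugt2b1, which were dim on E14 arrays. Markers of the labelled cells were present and changed over the course. The median log2 ratio of 6 hepatoblast markers was 3.94 to 4.05 on the E14 arrays and -0.03 to 0.34 on the P56 arrays. These markers did not fall from E14 to E18: 4 of the 6 rose and 0 fell, with a median log2 fold change of 0.80. Cdh1, 1 of the 6, was below the adult pool at E14 (-0.73). The median of 11 hepatocyte markers was -3.86 to -3.59 at E14, -1.35 to -1.02 at E18 and -0.38 to 0.58 at P56. Markers of erythroid cells, which are not among the labelled cells, had array medians of 3.43 to 3.65 at E14 and -0.07 to 0.03 at P56.

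The phase II genes as a whole were far below the adult pool at E14 and near it at P56. The median log2 ratio over the 45 genes was -2.56, -2.92 and -2.94 on the E14 arrays, -1.50, -1.38 and -1.43 at E18, -1.17 and -0.75 at P5 and -0.12, -0.07 and 0.13 at P56. By limma with Benjamini-Hochberg adjustment over all genes tested, 41 of the 45 were higher at P56 than at E14, 3 were lower and 1 was not called, against a background of 36.1% of all genes higher and 34.8% lower. The 3 that fell were Gstm5, Mgst2 and Mgst3, all of the GST class, and the 1 that was not called was Sult2b1, a cholesterol sulfotransferase. The 41 include Sult1e1, which passed the filter on dim probes only through its P5 and P56 arrays. In bulk RNA, more cells of a type and more RNA per cell cannot be told apart.

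The stages are compared here by the median of each class on each array. The median over the UGT genes was -3.43, -3.80 and -3.79 at E14, -3.04, -2.80 and -2.82 at E18, -2.12 and -1.75 at P5 and 0.51, -0.25 and 0.31 at P56, so it was higher on every array of each later stage than on every array of the stage before. For the GST genes it was -1.70, -1.94 and -1.70 at E14, -1.10, -0.91 and -0.93 at E18, -1.17 and -0.75 at P5 and -0.35, -0.12 and -0.12 at P56, and the arrays of E18 and P5 overlapped. For the SULT genes it was -2.13, -2.77 and -2.59 at E14, -0.89, -1.17 and -0.98 at E18, -0.43 and -0.06 at P5 and -0.12, 0.73 and 1.27 at P56. P56 had the highest stage mean for 13 of 13 UGT genes, 15 of 21 GST genes and 6 of 11 SULT genes, against 36.3% of all genes tested.

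**Figure D1:**
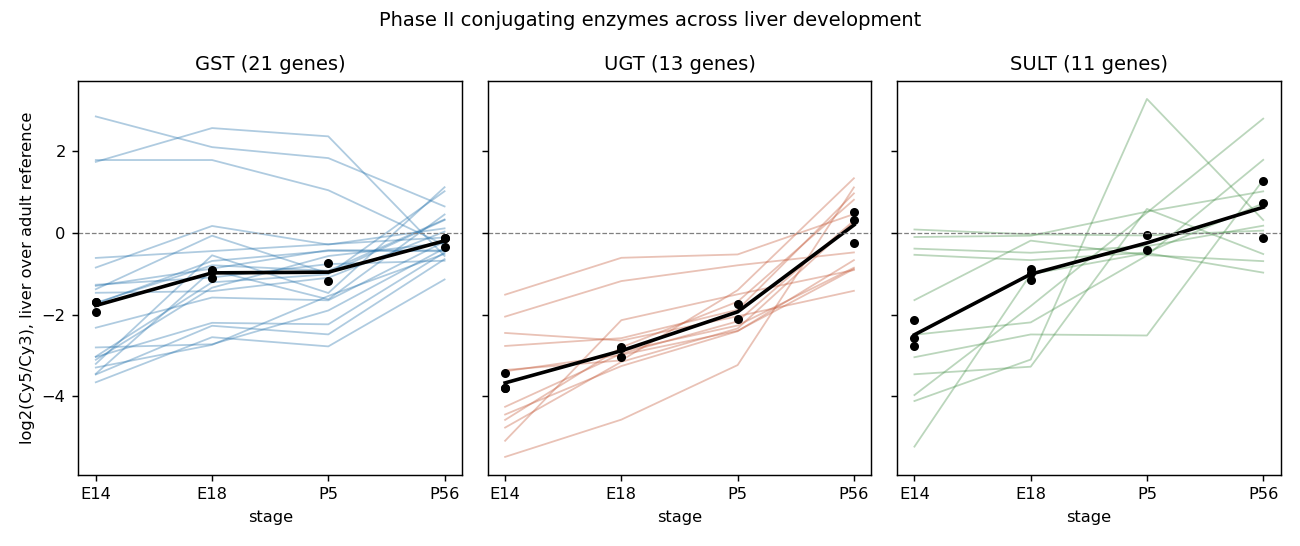
Log2(Cy5/Cy3) of the phase II genes against stage, 1 panel per enzyme class. Thin lines join the stage means of single genes, black points are the class median on each array, the black line joins their stage means, and the dashed line is the adult reference; 3 GST genes start above the reference and end lower, while every UGT line ends above its start.

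The level present before birth differed from gene to gene. Among the 41 genes that were higher at P56 than at E14, the share of the log2 rise that was present by E18 had a median of 44.4% in the GST class (2.68% to 106%, 18 genes), 28.5% in the UGT class (-18% to 70.6%, 13 genes) and 9.93% in the SULT class (-18% to 153%, 10 genes). By P5 the medians were 43.4%, 48.3% and 60.8%. These shares describe the stage means and were not tested between classes. Those of Ugt2b1, Sult1e1 and Sult3a1 are uncertain, since these genes were dim on E14 arrays. The shares of Sult2a2 and Sult3a1 also depend on replicate 1 of P56, without which their rises were 6.25 and 6.16 in place of 4.43 and 4.34.

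The genes lie in a few clusters, and not all neighbours moved the same way. By the probe positions of the array files (genome build mm7), 11 of the 45 lay within 686 kb of chromosome 5, in the order Ugt2b34, Ugt2b1, Ugt2b35, Ugt2b5, Ugt2b37, Ugt2a3, Ugt2b38, Ugt2a1, Sult1b1, Sult1d1 and Sult1e1. All 11 were higher at P56 than at E14, against 41 of the 45 members and 36.1% of all genes tested. The 9 that were well above background at E14, all but Ugt2b1 and Sult1e1, rose by 1.97 (Ugt2b34) to 6.77 (Sult1d1) on the log2 scale. The 7 Gstm genes lay within 143 kb of chromosome 3, in the order Gstm5, Gstm7, Gstm6, Gstm3, Gstm2, Gstm1 and Gstm4. Of these 7, Gstm5 fell by 2.08 from E14 to P56 and the other 6 rose by 0.96 to 2.83.

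Gsta1 and Gsta2 show how closely some of these probes resemble each other, since a long stretch of one probe is also in the other. The capitals mark the 20 bases shared without a break, and 27 of the 28 bases where the probes overlap are the same.
Gsta1 probe: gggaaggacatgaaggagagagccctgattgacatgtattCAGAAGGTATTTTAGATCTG
Gsta2 probe: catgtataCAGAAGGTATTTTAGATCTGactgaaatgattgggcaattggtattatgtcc
Gsta1 was called higher from E14 to E18 and Gsta2 was not, and a test between the 2 probes was not made. Of the 45 probes used, 10 shared a run of 15 bases or more with a probe of another gene, and the other 35 did not. Only the match of Gsta1 with Gsta2 lay between members of the 45. The other runs, of 15 to 18 bases, were with probes of genes outside the 45. Shared stretches within the transcripts outside the probes were not examined, so the Gsta, Gstm, Ugt2b and Sult2a genes are uncertain where a paralog could bind.

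Promoters of 39 of the 45 genes are in the RefSeq set (build GRCm38.p6, 250 bases before to 50 after a start). They are shown for Gsta3 and Mgst1, 2 GST genes that were higher at P56 than at E14, and for Ugt3a1. The capitals mark the letters TGACNNNGC, the core of the antioxidant response element through which Nfe2l2 acts, in Gsta3 (chr1:21240335-21240634, plus strand) and in Mgst1 (chr6:138140277-138140576, plus strand, where the match is on the opposite strand), and the palindrome read by HNF1 (GTTAAT, any 2 bases, then TTAAC), on the opposite strand, in Ugt3a1 (chr15:9279579-9279878, plus strand).
Gsta3 promoter: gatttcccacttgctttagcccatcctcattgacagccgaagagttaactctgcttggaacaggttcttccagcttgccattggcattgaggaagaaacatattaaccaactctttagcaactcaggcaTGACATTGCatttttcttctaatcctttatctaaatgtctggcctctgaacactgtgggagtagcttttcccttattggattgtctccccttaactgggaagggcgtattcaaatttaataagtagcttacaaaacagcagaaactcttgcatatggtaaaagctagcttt
Mgst1 promoter: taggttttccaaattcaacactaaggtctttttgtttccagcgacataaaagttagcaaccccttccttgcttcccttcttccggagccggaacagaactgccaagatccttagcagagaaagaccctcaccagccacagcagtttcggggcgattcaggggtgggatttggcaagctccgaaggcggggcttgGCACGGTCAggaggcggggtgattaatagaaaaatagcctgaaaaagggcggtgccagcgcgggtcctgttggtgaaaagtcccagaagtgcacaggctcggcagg
Ugt3a1 promoter: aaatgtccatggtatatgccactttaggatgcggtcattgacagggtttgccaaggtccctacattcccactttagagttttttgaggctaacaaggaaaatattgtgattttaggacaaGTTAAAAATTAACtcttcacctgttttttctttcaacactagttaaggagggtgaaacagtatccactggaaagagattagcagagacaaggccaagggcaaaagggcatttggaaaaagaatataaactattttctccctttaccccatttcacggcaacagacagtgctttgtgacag
Searched on both strands, TGACNNNGC was found for 4 of 19 GST genes (Gsta3, Gstm5, Gstm7 and Mgst1), 0 of 11 UGT genes and 0 of 9 SULT genes, against 14% of the 27025 genes with a promoter. Of the 4, Gsta3, Mgst1 and Gstm7 rose from E14 to P56 and Gstm5 fell. The HNF1 palindrome was found for 13 of the 27025 genes, of which Ugt3a1 was 1. The TATA box letters TATAAA were found for 9 of the 39 members and 15.7% of all genes. No match overlaps another in the 3 sequences shown, and the TATAAA of Ugt3a1, 8 bases before its start, is left in lower case.

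Before birth, from E14 to E18, most GST and UGT genes rose. Of the 45 genes, 26 were higher at E18 and 1 lower, against 24.6% of all genes higher and 22.8% lower. The classes contributed 14 of 21 GST genes, 9 of 13 UGT genes and 3 of 11 SULT genes to the 26. The median log2 fold change was 0.84 for GST, 0.90 for UGT and 0.30 for SULT, against -0.01 over all genes tested. Within the scan that held the 3 E14 arrays and replicate 1 of E18 the medians were 0.86, 0.95 and 0.32, and with the scan as a block 25 genes were higher and 1 lower. Erythroid markers fell in the same interval in 4 of 10 genes (1 rose), with array medians of 2.87 to 2.97 at E18, and hepatocyte markers rose in 9 of 11. Markers of other cells rose too, in 7 of 7 macrophage, 8 of 10 other haematopoietic, 4 of 6 endothelial, 4 of 6 hepatoblast, 3 of 4 biliary and 2 of 7 stellate genes (1 stellate gene fell). The array medians of the other haematopoietic markers were -0.14 to 0.03 at E14 and 2.08 to 2.38 at E18, and those of the macrophage markers -3.58 to -3.19 and -1.47 to -1.11. Their part in these results was not tested.

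Around birth, from E18 to P5, the calls were mostly upward in UGT and SULT genes and mostly downward in GST genes. Of the 45 genes 15 were higher and 6 lower, against 7.32% and 6.40% of all genes. The higher genes were 8 UGT, 5 SULT and 2 GST genes. The lower genes were Gsta1, Gsta3, Gstm5, Gstm7, Gstt1 and Sult1c1. Medians were 0.69 for UGT, 0.52 for SULT and -0.07 for GST, which turned to 0.14 with median centring, against 0.00 for all genes. This comparison has only 2 arrays at P5, each in another scan and with no scan shared with E18. Without replicate 3 of P5, 9 genes were higher and 4 lower, and with the scan as a random block 12 and 3. With median centring the split was 11 higher to 2 lower, and in the authors' table it was 7 to 1. The methods' t-test called 17 higher and 5 lower at an unadjusted p under 0.05, and 0 and 0 after Benjamini-Hochberg adjustment.

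After P5, to P56, 30 genes were higher and 5 lower, against 20.9% and 24.7% of all genes. The higher genes were 13 GST, 11 UGT and 6 SULT genes, and the lower genes were Gstm5, Mgst2, Mgst3, Sult1a1 and Sult1c2. Medians were 1.13 for GST, 1.74 for UGT and 0.50 for SULT, against -0.02 over all genes. With median centring the median of all genes shifted to -0.47 and the split was 18 higher to 11 lower, with medians of 0.38, 1.05 and -0.028 for the 3 classes, all above that shift. Within the scan that held replicate 3 of P5 and the P56 arrays the medians were 1.01, 1.51 and 0.24, and with the scan as a block 25 genes were higher and 3 lower. Erythroid markers fell in 9 of 10 genes over this step, with array medians of 2.09 and 2.84 at P5 and -0.07 to 0.03 at P56, and the 6 hepatoblast markers all fell. Macrophage markers fell in 5 of 7 genes, other haematopoietic in 8 of 10, endothelial in 5 of 6 (1 rose), stellate in 4 of 7 (1 rose) and biliary in 2 of 4. Their part was not tested.

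In the GST class the alpha enzymes Gsta3 and Gsta1 rose most before birth by the probes used. Log2 ratios of Gsta3 were -3.10, -3.27 and -3.26 at E14, -0.66, -0.54 and -0.46 at E18, -1.70 and -1.24 at P5, and 1.23, 1.08 and 1.05 at P56. Those of Gsta1 were -3.23, -3.37 and -3.75 at E14, -1.10, -0.91 and -0.74 at E18, -1.82 and -1.44 at P5, and 0.75, 0.19 and 0.41 at P56. Both genes were higher on every E18 array than on any E14 array, lower again on both P5 arrays, and highest on the 3 P56 arrays.

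From E14 to E18 Gsta3 changed by 2.66 ± 0.12 (adjusted p = 1.73e-08) and Gsta1 by 2.54 ± 0.18 (adjusted p = 3.80e-07), as log2 fold change ± standard error. Both then fell from E18 to P5, Gsta3 by 0.92 ± 0.14 (adjusted p = 0.00123) and Gsta1 by 0.71 ± 0.20 (adjusted p = 0.0341). The fall of Gsta3 was called with every single array left out, and that of Gsta1 was not called without 5 of the 11 arrays, each left out in turn. From P5 to P56 Gsta3 rose by 2.59 ± 0.14 (adjusted p = 6.29e-08) and Gsta1 by 2.08 ± 0.20 (adjusted p = 7.26e-06). Gsta2 was not called from E14 to E18, at 0.08 ± 0.23 (adjusted p = 0.812), and rose by 1.52 ± 0.26 (adjusted p = 5.60e-04) from P5 to P56. A further Gsta3 probe gave 4.72 from E14 to E18 and 6.90 from E14 to P56, larger than the 2.66 and 4.33 of the probe used. Gsta4, which conjugates lipid peroxidation products, was called in the comparison of P56 with E14, at 0.59 ± 0.15 (adjusted p = 0.0044), and its sign turned when arrays were centred on their median in place of loess, though not relative to the median of all genes, which that centring moved to -0.33.

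Mgst1, a membrane enzyme of the endoplasmic reticulum and mitochondria, moved in steps. On the 11 arrays its log2 ratio was -2.94, -3.10 and -3.05 at E14, -1.16, -1.23 and -1.24 at E18, -1.10 and -0.94 at P5, and 1.04, 1.00 and 1.02 at P56. It rose by 1.82 ± 0.086 (adjusted p = 2.13e-08) before birth, changed by 0.19 ± 0.096 (adjusted p = 0.203) around birth, which was not called, and rose by 2.04 ± 0.096 (adjusted p = 3.01e-08) after P5. Its other probe gave 3.94 before birth and 7.10 from E14 to P56, so the size depends on the probe and the direction does not.

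Mgst2 and Mgst3, relatives of Mgst1 that belong with the leukotriene C4 synthase family, were lower at P56 than at every earlier stage. Log2 ratios of Mgst2 were 1.84, 1.63 and 1.74 at E14, 2.57, 2.55 and 2.59 at E18, 2.15 and 2.58 at P5, and -0.78, -0.30 and -0.61 at P56. It was above the adult pool on all 8 arrays before P56 and below it on all 3 arrays of P56. It rose by 0.83 ± 0.14 (adjusted p = 4.30e-04) before birth and fell by 2.93 ± 0.15 (adjusted p = 6.49e-08) from P5 to P56.

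Log2 ratios of Mgst3 were 2.77, 2.94 and 2.85 at E14, 2.02, 2.20 and 2.08 at E18, 1.87 and 1.79 at P5, and 0.12, 0.87 and 0.95 at P56. Mgst3 was the 1 member lower at E18 than at E14, at -0.75 ± 0.18 (adjusted p = 0.00441), and it fell by a further 1.18 ± 0.20 (adjusted p = 5.20e-04) from P5 to P56. Of its 3 probes that passed the filter, 2 gave -2.20 and -2.03 from E14 to P56 and the third gave -0.64.

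Gstm5 fell from E14 to P56 where the other 6 mu genes rose. On the 11 arrays its log2 ratio was 1.76, 1.81 and 1.78 at E14, 1.87, 1.80 and 1.68 at E18, 1.04 and 1.05 at P5, and -0.43, -0.20 and -0.25 at P56. Its E14 and E18 arrays overlapped, and it then fell by 0.74 ± 0.10 (adjusted p = 8.39e-04) to P5 and by 1.34 ± 0.10 (adjusted p = 1.37e-06) to P56. Gstm1, Gstm2, Gstm3, Gstm6 and Gstm7 rose from E14 to E18 by 0.84 to 1.19, while Gstm4, at 0.04 ± 0.14 (adjusted p = 0.839), was not called. After P5 Gstm1, Gstm2, Gstm3, Gstm4 and Gstm6 rose by 1.13 to 1.84, while the rise of Gstm7, 0.40 ± 0.13 (adjusted p = 0.0244), lost its call without replicate 2 of P5 or replicate 1 of P56. Its sign turned with median centring, though not relative to the shift of all genes to -0.47. The fall of Gstm7 from E18 to P5, 0.46 ± 0.13 (adjusted p = 0.0361), lost its call when any of 7 of the 11 arrays was left out. The reference channel of the Gstm1 probe was saturated on 10 of 11 arrays, and its other probe, not saturated, gave 1.86 from E14 to P56 against 2.83.

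The theta, kappa and omega genes differed in the steps that were called. Log2 ratios of Gstt3 were -3.04, -3.18 and -3.11 at E14, -1.22, -1.38 and -1.43 at E18, -0.79 and -0.35 at P5, and -1.01, -0.07 and 0.34 at P56. Gstt3 rose by 1.76 ± 0.26 (adjusted p = 1.71e-04) before birth and by 2.86 ± 0.26 (adjusted p = 1.11e-06) over the whole course. Replicate 1 of P56 differed from the mean of the other P56 arrays by -1.14, and without it the step from P5 to P56, 0.32 and not called, became 0.70 (adjusted p = 0.00519).

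Log2 ratios of Gstt1 were -1.38, -1.63 and -1.12 at E14, -0.30, 0.00 and 0.10 at E18, -1.23 and -0.75 at P5, and 0.15, 0.22 and 0.57 at P56. It rose by 1.31 ± 0.17 (adjusted p = 7.68e-05), fell by 0.92 ± 0.19 (adjusted p = 0.00985) to P5 and rose by 1.31 ± 0.19 (adjusted p = 2.22e-04) to P56, the same sequence of calls as Gsta1, Gsta3 and Gstm7. Gstt2 rose by 1.05 ± 0.20 (adjusted p = 9.81e-04) before birth, and neither later step was called.

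Gstk1, the kappa enzyme of mitochondria and peroxisomes, had log2 ratios of -3.25, -3.29 and -3.36 at E14, -2.74, -2.81 and -2.68 at E18, -1.57 and -1.52 at P5, and -0.68, -0.51 and -0.35 at P56. It was called higher in each of the 3 steps, by 0.56 ± 0.098 (adjusted p = 6.31e-04), 1.20 ± 0.11 (adjusted p = 5.19e-05) and 1.03 ± 0.11 (adjusted p = 1.75e-05), and was the only GST gene for which this held. Gsto1, which reduces dehydroascorbate, had log2 ratios of -1.27, -1.38 and -1.25 at E14, -0.84, -0.85 and -0.93 at E18, -0.48 and -0.36 at P5, and -0.35, -0.53 and -0.41 at P56. It rose by 0.45 ± 0.099 (adjusted p = 0.0113) around birth, a call that was lost without replicate 3 of P5, with median centring, in the authors' table and in the methods' t-test. Gsto2 was called in the comparison of P56 with E14 alone, at 0.50 ± 0.098 (adjusted p = 6.38e-04).

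**Figure D2:**
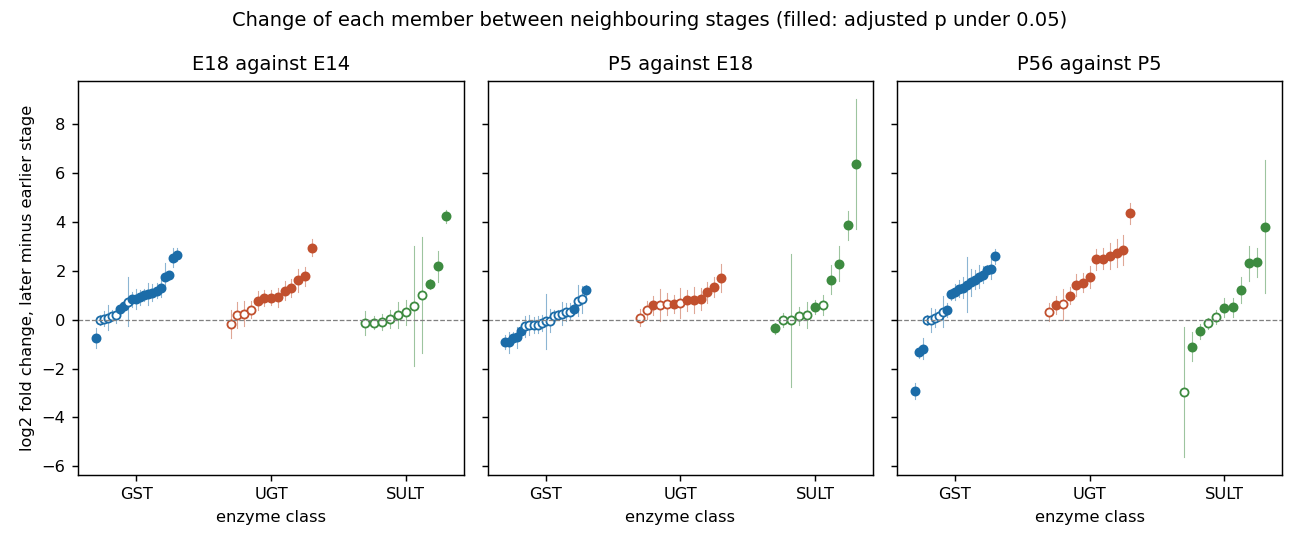
Log2 fold change of each phase II gene (later minus earlier stage) in the 3 comparisons of neighbouring stages, by class and sorted within it. Filled points had an adjusted p under 0.05, open points did not, and thin bars are 95% confidence intervals; the UGT genes called are all above 0 in each panel, and the widest intervals are those of Sult2a2 and Sult3a1.

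Of the 13 UGT genes 9 rose from E14 to E18, 8 from E18 to P5 and 11 from P5 to P56, and 0 fell in any of these steps. Of all genes tested 24.6%, 7.32% and 20.9% were higher in these steps, and 22.8%, 6.40% and 24.7% lower. Over the whole course 13 of 13 UGT genes were higher, against 36.1% of all genes. Their median log2 fold change was 3.78, against 0.04 over all genes. The largest rise was that of Ugt2a3, with log2 ratios of -5.16, -5.64 and -5.66 at E14, -4.47, -4.65 and -4.60 at E18, -3.33 and -3.15 at P5, and 1.41, 0.73 and 1.20 at P56. Every array was above every array of the stage before. Its rise came mostly after P5, with 0.91 ± 0.17 (adjusted p = 0.00109), 1.34 ± 0.20 (adjusted p = 0.00117) and 4.35 ± 0.20 (adjusted p = 2.24e-08) for the 3 steps, and 6.60 over all (97-fold by the ratio, where both stages were well above background).

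The Ugt2b genes conjugate steroids, bile acids and many drugs. Log2 ratios of Ugt2b5 were -4.47, -4.68 and -4.60 at E14, -2.81, -2.77 and -2.82 at E18, -1.62 and -1.75 at P5, and 1.31, 0.45 and 0.67 at P56. Those of Ugt2b38 were -4.54, -4.75 and -5.02 at E14, -3.34, -3.05 and -3.09 at E18, -2.12 and -2.56 at P5, and 0.72, -0.25 and 0.31 at P56. Both were called higher in each of the 3 steps, as were Ugt2b35, Ugt2b37, Ugt2a3 and Ugt1a6b. The call from E18 to P5 was lost for Ugt2b35 without replicate 2 or 3 of E18 or replicate 3 of P5, for Ugt2b37 without replicate 1 or 2 of E18 or replicate 2 of P5, and for Ugt1a6b without replicate 1 of E18 or replicate 3 of P5. Ugt1a6b also lost its call from P5 to P56 without replicate 2 of P5. For Ugt2b38 the call from E18 to P5, at 0.82 ± 0.24 (adjusted p = 0.0462), was lost when any of 9 of the 11 arrays was left out.

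Ugt2b5 rose by 1.78 ± 0.18 (adjusted p = 6.80e-06) before birth, 1.12 ± 0.20 (adjusted p = 0.00355) around birth and 2.49 ± 0.20 (adjusted p = 1.67e-06) after P5. Ugt2b38 rose by 5.03 ± 0.22 (adjusted p = 2.27e-09) over the whole course. Ugt2b1 began later, with log2 ratios of -3.08, -3.54 and -3.46 at E14, -3.04, -2.996 and -3.34 at E18, -1.47 and -1.34 at P5, and 1.92, 0.77 and 1.32 at P56. Its E14 and E18 arrays overlapped, and its Cy5 signal was not well above background on any E14 array, so its rise to P56 was at least 24.8-fold (adjusted p = 7.16e-09). From E18 to P5 it rose by 1.72 ± 0.26 (adjusted p = 0.00152). Among the P56 arrays Ugt2b1, Ugt2b5, Ugt2b35, Ugt2b37 and Ugt2b38 were each highest in replicate 1, by 0.40 to 0.88 above the mean of the other arrays. For Ugt2b34, the remaining Ugt2b gene, replicate 1 lay between the others, 0.07 above their mean. Over the 13 UGT genes replicate 1 was highest in 7, lowest in 2 and between the others in 4.

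Of the UGT genes Ugt2a1 had the smallest share of its rise present by P5, 23.7%, with log2 ratios of -2.44, -2.92 and -2.94 at E14, -2.80, -2.47 and -2.46 at E18, -2.35 and -1.42 at P5, and 1.09, 0.51 and 1.30 at P56. From E14 to P5 no step was called, and from P5 to P56 it rose by 2.85 ± 0.28 (adjusted p = 9.86e-06). Ugt3a1 and Ugt3a2, which use other sugar nucleotides than the Ugt1 and Ugt2 enzymes, rose by 2.82 and 2.51 from E14 to P56. The call of Ugt3a2 from E18 to P5, at 0.59 ± 0.18 (adjusted p = 0.0462), was lost when any single E14, E18 or P5 array was left out. Further probes gave smaller rises from E14 to P56. They were 2.87 for Ugt2a1, where the probe used gave 3.74, and 1.46 for Ugt3a2.

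The Ugt1a genes share their last exons and differ in the exon at the start. Log2 ratios of the probe named Ugt1a6b were -5.01, -5.20 and -5.07 at E14, -2.50, -1.97 and -1.95 at E18, -1.66 and -1.35 at P5, and -0.83, -1.05 and -0.85 at P56. It rose by 2.95 ± 0.15 (adjusted p = 3.40e-08) before birth, more than any other UGT gene in that step. This probe lies at chr1:88122519-88122578 (mm7), the farthest downstream of the Ugt1a probes, while a dim probe of the same name lies at chr1:88010877-88010936 and gave 0.34 in this step and 0.60 over the whole course. Which Ugt1a transcripts the bright probe read is therefore uncertain. Ugt1a1, the bilirubin enzyme, rose by 0.87 ± 0.15 (adjusted p = 5.40e-04) before birth, and its later steps were not called, at 0.39 ± 0.17 (adjusted p = 0.152) and 0.32 ± 0.17 (adjusted p = 0.148). Ugt1a9 was called higher in the comparison of P56 with E14 alone, at 1.03 ± 0.26 (adjusted p = 0.00411).

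**Figure D3:**
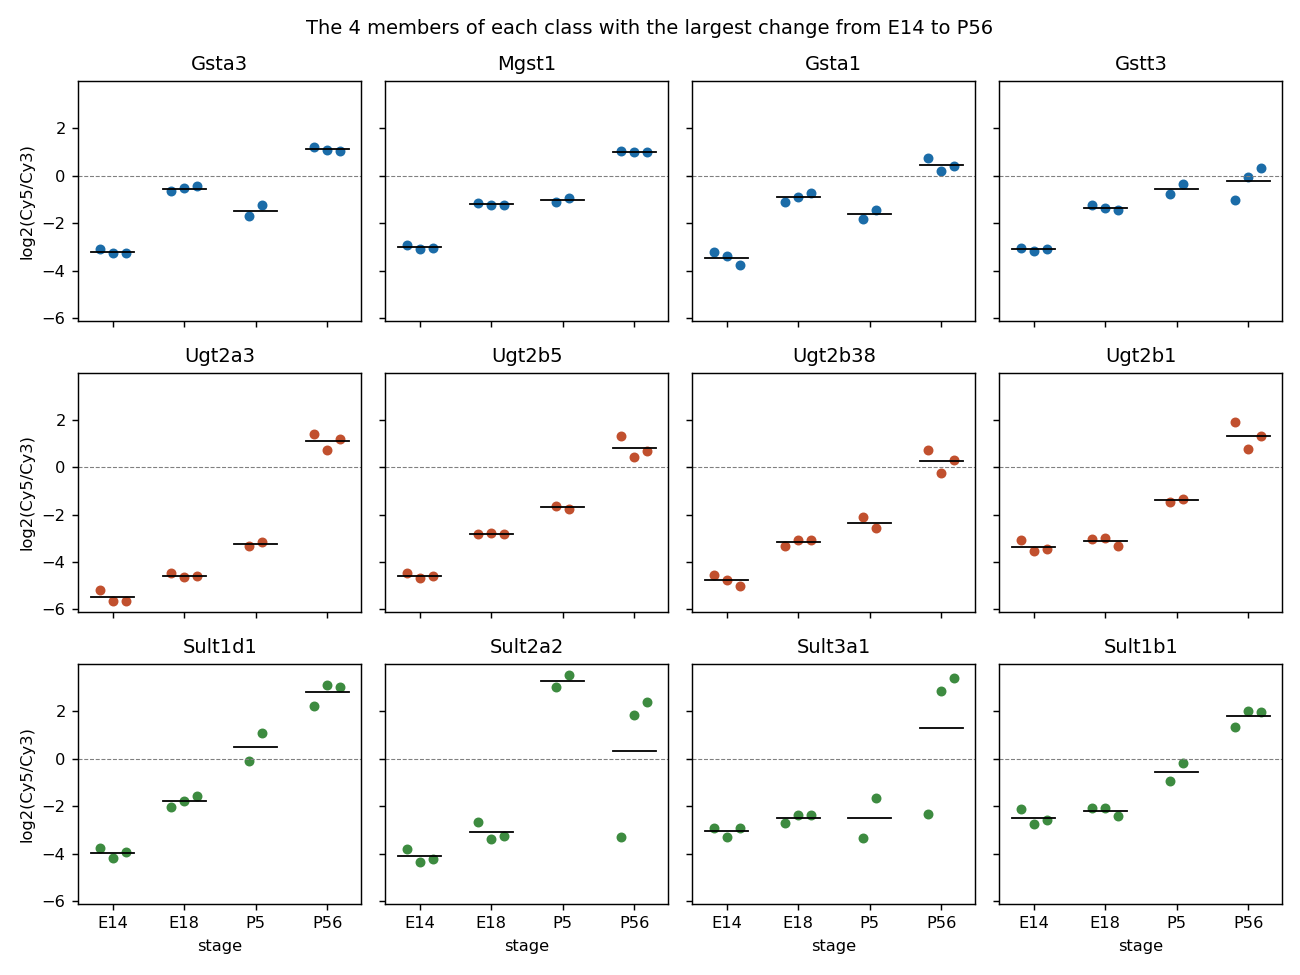
Log2(Cy5/Cy3) on every array, by stage, for the 4 genes of each class with the largest change from E14 to P56 (rows: GST, UGT, SULT). Points are single arrays in replicate order, black bars are stage means and the dashed line is the adult reference; the widest spread within a stage is that of Sult2a2 and Sult3a1 at P56.

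Among the sulfotransferases 3 genes rose before birth, Sult1a1, Sult1c1 and Sult1d1. The largest change was that of Sult1a1, a phenol sulfotransferase, whose log2 ratios were -5.05, -5.40 and -5.26 at E14, -0.89, -1.17 and -0.98 at E18, -0.43 and -0.56 at P5, and -1.03, -1.10 and -0.79 at P56. It rose by 4.22 ± 0.12 (adjusted p = 1.50e-09) (18.7-fold) from E14 to E18 and by 4.26 from E14 to P56, so 99.1% of the rise was present before birth. After P5 it fell slightly, by 0.48 ± 0.14 (adjusted p = 0.0136), a call that was lost without replicate 2 of P5, with the scan as a block, in the authors' table and in the methods' t-test.

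Sult1d1, an amine sulfotransferase, rose in every step and had the largest change of the 45 genes by the probes used, though not by every probe (7.10 for the other Mgst1 probe and 6.90 for the other Gsta3 probe). Its log2 ratios were -3.77, -4.21 and -3.95 at E14, -2.03, -1.77 and -1.58 at E18, -0.11 and 1.09 at P5, and 2.23, 3.12 and 3.04 at P56. Its 3 steps were 2.18 ± 0.29 (adjusted p = 8.52e-05), 2.29 ± 0.33 (adjusted p = 0.00107) and 2.30 ± 0.33 (adjusted p = 1.60e-04), of nearly equal size on the log2 scale. Sult1b1, which sulfates thyroid hormones, started around birth, with log2 ratios of -2.13, -2.77 and -2.59 at E14, -2.10, -2.07 and -2.41 at E18, -0.95 and -0.16 at P5, and 1.35, 2.02 and 1.99 at P56. Its steps were 0.30 ± 0.24 (adjusted p = 0.326), not called, then 1.64 ± 0.27 (adjusted p = 0.00222) and 2.34 ± 0.27 (adjusted p = 2.85e-05). A dimmer Sult1b1 probe, not well above background on any E14 or E18 array, gave -0.03, 0.76 and 1.15 for these steps. From E14 to P56 that probe gave 1.88, where the probe used gave 4.28.

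Sult1c1 and Sult1c2 had different courses. Log2 ratios of Sult1c1 were -1.68, -1.61 and -1.65 at E14, -0.31, -0.05 and -0.21 at E18, -0.45 and -0.64 at P5, and -0.67, -0.70 and -0.71 at P56. It rose by 1.46 ± 0.093 (adjusted p = 1.82e-07) before birth and was lower at P5, at -0.36 ± 0.10 (adjusted p = 0.0426), a call that was lost under 7 of 13 other settings and without 7 of the 11 arrays, each left out in turn. Log2 ratios of Sult1c2 were -3.12, -3.73 and -3.54 at E14, -3.40, -3.17 and -3.26 at E18, 1.09 and 0.08 at P5, and -0.73, -0.20 and -0.62 at P56. It gave 0.19 ± 0.24 (adjusted p = 0.563) before birth, which was not called, rose by 3.86 ± 0.27 (adjusted p = 7.00e-06) from E18 to P5 (14.6-fold), and fell by 1.10 ± 0.27 (adjusted p = 0.00543) to P56, a step that was -0.60 and not called (adjusted p = 0.103) with the scan as a block, which here leaves out replicate 2 of P5.

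Sult2a2, which sulfates bile acids and hydroxysteroids, had the largest change around birth of the 45 genes. The array values were -3.80, -4.34 and -4.22 at E14, -2.67, -3.39 and -3.26 at E18, 3.03 and 3.53 at P5, and -3.31, 1.86 and 2.40 at P56. Both P5 arrays were above all 6 fetal arrays, and the P56 arrays split, with replicate 1 within the range of the E18 arrays. From E18 to P5 it rose by 6.38 ± 1.21 (adjusted p = 0.00565) (83.5-fold). Its dim second probe gave 2.30 in that step and -0.63 before birth, where the probe used gave 1.02.

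Sult3a1 was high on 2 of the 3 P56 arrays. Its log2 ratios were -2.91, -3.31 and -2.91 at E14, -2.73, -2.35 and -2.38 at E18, -3.35 and -1.68 at P5, and -2.34, 2.84 and 3.39 at P56. Replicates 2 and 3 of P56 were above every other array, and replicate 1 lay among the arrays of the earlier stages. It was called higher at P56 than at P5, at 3.81 ± 1.25 (adjusted p = 0.0263), although the arrays overlapped, and the call was lost without replicate 2 of P5, replicate 2 of P56 or replicate 3 of P56.

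Of the other sulfotransferases, Sult1e1, which sulfates estrogen, was not well above background on any E14 or E18 array. It passed the filter on dim probes only through its P5 and P56 arrays. Its call as higher at P56 than at E14 is therefore partly set by the filter, and no fold is given. Its rise from P5 to P56, 0.50 ± 0.18 (adjusted p = 0.0436), lost its call when any of 10 of the 11 arrays was left out. Sult4a1 rose by 0.50 ± 0.17 (adjusted p = 0.0327) and Sult5a1 by 1.20 ± 0.25 (adjusted p = 0.0019) from P5 to P56, and the sign of Sult4a1 turned with median centring, though not relative to the shift of all genes to -0.47. The call of Sult4a1 was lost without replicate 2 of P5, replicate 2 of P56 or replicate 3 of P56. Sult2b1 was not called in any comparison, and its 95% interval from E14 to P56 ran from -0.28 to 0.22.

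Replicate 1 of P56 stood apart from the other P56 arrays. It was more than 1 above both of them on the log2 scale for 0.282% of 16660 genes with a value on all 3 arrays, and more than 1 below for 0.390%, against 0.0420% above and 0.0360% below for replicate 2 and 0.0420% and 0.0120% for replicate 3. Among the 45 genes these were Gstp1, above, and Sult2a2 and Sult3a1, below. No phase II gene stood out in replicates 2 or 3 by this measure.

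Gstp1, the pi enzyme, was picked out here after its values had been seen. On the 11 arrays its log2 ratio was -2.23, -2.38 and -2.36 at E14, -1.52, -1.58 and -1.65 at E18, -1.79 and -1.52 at P5, and 1.33, -1.06 and -0.92 at P56. Replicate 1 of P56, where the Cy5 signal of this probe was saturated, was at least 2.32 above the mean of the other 2. For Sult2a2 the same difference was -5.44, and for Sult3a1 it was -5.46. A separate Gstp1 probe, saturated on no array, gave 1.14 from P5 to P56, where the probe used gave 1.44.

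Xist, the RNA made from the inactive X chromosome in females, was at -0.06 in replicate 1 of P56 and at 4.03 and 5.18 in replicates 2 and 3. Eif2s3y, a gene of the Y chromosome, was at 1.53 in replicate 1 and at -1.21 and -2.02 in the others. At the earlier stages Xist was at 3.19 in replicate 2 of E14, at 4.45 in replicate 1 of E18 and at 4.13 and 2.68 in replicates 2 and 3 of P5, and between -0.02 and 0.14 on the other 4 arrays of these stages. The part of sex in these values was not tested, since the labels give none.

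With and without replicate 1, some calls at P56 changed. Without it, Sult2a2 was lower at P56 than at P5 by 1.15 (adjusted p = 0.00522), where the fit with all arrays gave -2.97 (adjusted p = 0.0651). The rise of Sult3a1 from P5 to P56 was 5.63 (adjusted p = 1.21e-06), and from E14 to P56 the rise of Sult2a2 was 6.25, while Sult3a1 gave 6.16 with only 1 of 3 E14 arrays well above background. The rise of Gstp1 from P5 to P56 became 0.66 (adjusted p = 0.00101) in place of 1.44 (adjusted p = 0.0402). When any 1 of the 8 arrays of the earlier stages was left out, the rise of Gstp1 was not called. Counts over the 45 genes in the comparisons with P56 moved little, to 31 higher and 6 lower for P56 against P5, and stayed at 41 and 3 for P56 against E14. All arrays share 1 estimate of the spread, so calls between the earlier stages changed too. Without replicate 1 of P56, Gstp1, Sult2a2 and Ugt3a2 were also called higher at E18 than at E14, which made 29 genes. From E18 to P5 Gsta2, Gstt3, Sult1e1 and Ugt3a1 were also called higher, which made 19 in place of 15.

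**Figure D4:**
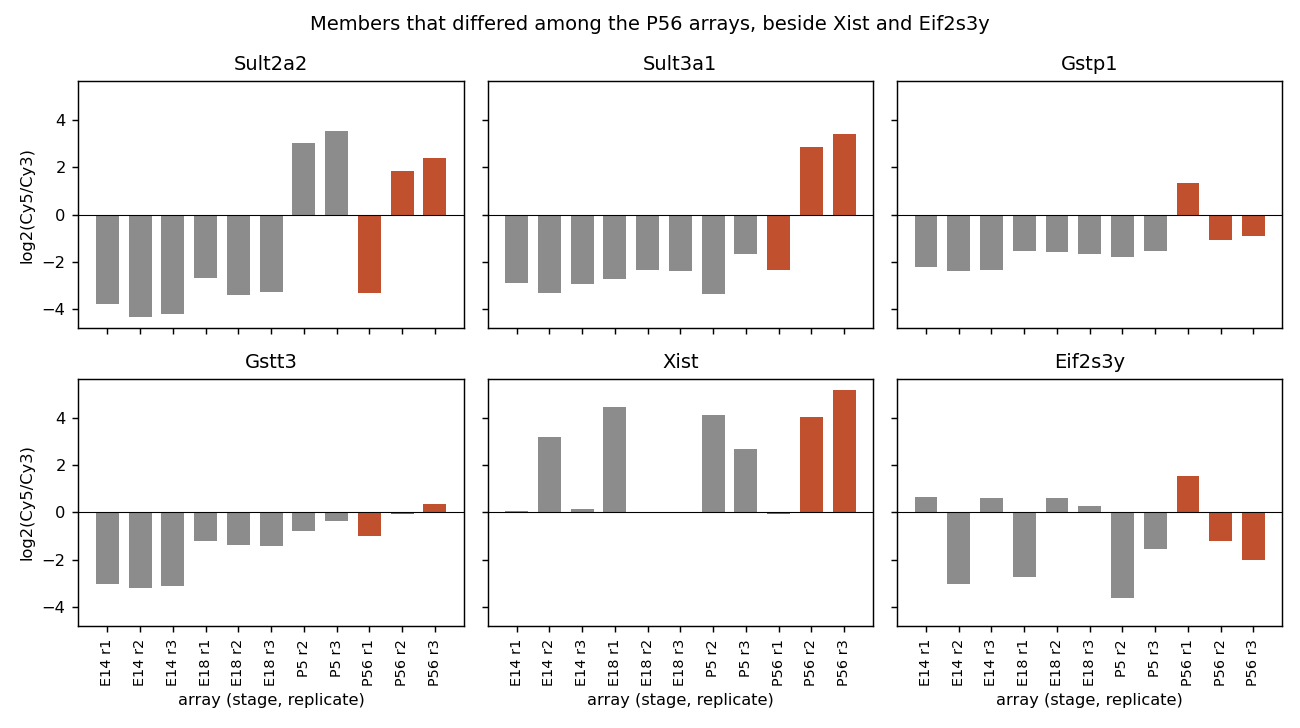
Log2(Cy5/Cy3) on each of the 11 arrays for the 4 phase II genes in which replicate 1 of P56 differed most from the other P56 arrays, and for Xist and Eif2s3y. Grey bars are E14, E18 and P5 arrays and orange bars P56 arrays; bars start at 0, the adult reference, and replicate 1 of P56 is opposite in sign to replicates 2 and 3 for Sult2a2, Sult3a1, Gstp1 and Eif2s3y.

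Other phase II enzymes and the supply of their cosubstrates were counted from lists, to be read against the shares over all genes (24.6% higher and 22.8% lower before birth, 20.9% and 24.7% after P5). Of 12 further genes of conjugation tested (acyl, methyl and acetyl transferases and the acyl-CoA synthetases Acsm1 and Acsm3), 6 were higher at E18 than at E14 and 0 lower, and 12 of 12 were higher at P56 than at P5, from 0.54 for Acsm3 to 4.88 for Nnmt, the nicotinamide methyltransferase. In the first step the largest rise of these was 3.34, for Acsm1.

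The genes that supply cosubstrates had calls in both directions. Ugdh, which makes UDP-glucuronic acid, changed by 0.46 (adjusted p = 0.0143) before birth, fell by 0.64 (adjusted p = 0.0162) around birth and rose by 2.31 (adjusted p = 3.58e-07) after P5. Of the 4 genes of UDP-glucuronic acid supply, 3 were higher and 1 lower at E18 than at E14, and 3 were higher and 0 lower at P56 than at P5. Of the 8 genes of PAPS and sulfate supply, 2 were higher and 0 lower before birth, and 3 were higher and 1 lower after P5, so the count before birth was near the share over all genes. The 1 that fell was Papss1, a PAPS synthase, at -0.70 (adjusted p = 0.00177), while Papss2 gave -0.02 (adjusted p = 0.886). Of the 5 genes of glutathione supply and recycling, 2 were higher before birth and 2 lower after P5, and Gclc, a subunit of the enzyme that limits glutathione synthesis, was not called in either step, at 0.52 (adjusted p = 0.0723) and -0.34 (adjusted p = 0.284). Of 5 exporters of conjugates, 2 were higher before birth, with Abcc2 at 2.23 (adjusted p = 2.90e-07), and 1 was higher and 3 lower after P5. Of 4 enzymes that remove conjugates, 2 were higher before birth, and 1 was higher and 1 lower after P5.

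Of 13 regulators of these genes or of hepatocytes, 11 were higher at E18 than at E14 and 0 lower, against 24.6% and 22.8% of all genes. After P5 3 were higher and 3 lower, near the 20.9% and 24.7% of all genes. The xenobiotic receptors Ahr, Nr1i2 (PXR) and Nr1i3 (CAR) rose before birth by 1.65 (adjusted p = 9.04e-07), 1.53 (adjusted p = 2.62e-05) and 0.94 (adjusted p = 3.44e-04). Hnf4a, a hepatocyte factor, rose by 1.47 (adjusted p = 7.86e-07). Nfe2l2, which acts through the antioxidant response element, gave 0.24 (adjusted p = 0.157) before birth and -0.33 (adjusted p = 0.0922) after P5. Around birth 1 of the 13 regulators was called, near the 7.32% of all genes higher in that step. It was Nr1i3, at 0.88 (adjusted p = 0.00618).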

How the data were processed

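Normal mouse liver arrays of 4 stages were used (11 arrays), and tumour and human samples were not analysed here. Spots were read with Feature Extraction 9.5.1.1, and the deposited files give intensity values: mean spot signals, median local backgrounds and processed signals of both channels. The authors also deposited gene-level log2 ratios normalized by lowess, a table that served only as an alternative; it holds no group comparison.

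Background was corrected by normexp (offset 50) and each array normalized by loess in limma 3.58.1 (R 4.3.3), with control spots at weight 0 and outlier spots left out. Probes were kept where every array of some stage had a Cy5 signal well above background and no stage lacked more than 1 value, and each gene was read from its brightest probe. Stage means over all 11 arrays were compared by lmFit and eBayes, with Benjamini-Hochberg adjustment over 16704 genes at 0.05. Fold changes are differences of log2 ratios, later minus earlier stage, ± standard error. A loess fit takes the centre of each array as unchanged, so shifts shared by most genes cannot be seen. Tested on simulated data of 16704 genes, a log2 change of 1 was recovered in 89, 86, 86 and 91% of genes for E18 against E14, P5 against E18, P56 against P5 and P56 against E14. Of the genes called there, 2.07, 4.19, 6.53 and 5.45% had not been changed. The simulated noise was independent between arrays, without scan effects. Only 100 genes were changed by 1 and 100 by 2, so these rates need not hold for the real arrays.

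The labels call the arrays biological replicates, and precision is limited by 2 or 3 arrays per stage. Between 16790 and 25718 of 43379 spots were well above background in Cy5. Arrays of one scan (files with the same scan time) were scan 1, the 3 E14 arrays and replicate 1 of E18; scan 2, replicates 2 and 3 of E18; scan 3, P5 replicate 2 alone; and scan 4, the 3 P56 arrays with P5 replicate 3. No scan held both E18 and P5, or both E14 and P56. All 45 genes were matched to RefSeq (GRCm38.p6), 44 by accession and 1 by symbol.

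Values on every array are given for the 4 genes per class with the largest called change from E14 to P56, and, per class and step, for the 2 largest called rises and falls without overlap between arrays, which gave 23 genes. The genes and the lists were chosen with earlier results of these data known. Alternatives covered background, normalization, channel, filter, missing values, probe choice, the authors' table, replicate and scan blocks, the methods' t-test and leaving out each array. The scan as a random block was added after seeing the data.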

Additional observations from a re-analysis of the deposited data

How the results depend on the processing

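The counts of phase II genes called were within 1.5 times for E18 against E14 (higher) and P56 against E14 under every alternative run. Median centring moved the lower count for P5 against E18 to 2, and the counts for P56 against P5 to 18 higher and 11 lower. The medians became 0.14 (GST, P5 against E18), 1.19, 3.14 and 2.12 (GST, UGT and SULT, P56 against E14) and 0.38, 1.05 and -0.028 (P56 against P5). With that centring the median of all genes was -0.33 for P56 against E14 and -0.47 for P56 against P5, in place of 0.04 and -0.02. With the values of the authors, 7 genes were higher and 1 lower for P5 against E18, and 3 lower for P56 against P5, with medians of 1.57 (UGT, E18 against E14), 2.44 and 3.73 (GST and SULT, P56 against E14) and 2.53 (UGT, P56 against P5). With the processed signals the medians were 1.45 (UGT, E18 against E14), 2.53, 4.32 and 4.46 (GST, UGT and SULT, P56 against E14) and 1.36 (GST, P56 against P5). With Cy5 alone they were 0.61, 1.83 and 1.33 for GST (E18 against E14, P56 against E14, P56 against P5), and 3 genes were lower for P5 against E18. With probes well above background on every array the SULT medians were 1.08 (P5 against E18) and 3.60 (P56 against E14). With no background correction the medians were 4.17 (UGT, P56 against E14) and 1.40 (GST, P56 against P5), and with the mean over probes 3.30 (UGT, P56 against E14). The scan as a fixed block left 3 genes lower for P56 against P5, and as a random block 3 lower for P5 against E18. The methods' t-test called 30 higher and 2 lower, 17 and 5, 25 and 4, and 38 and 3 (E18 against E14, P5 against E18, P56 against P5, P56 against E14) at the unadjusted threshold. After Benjamini-Hochberg it called 28 and 2, 0 and 0, 3 and 1, and 37 and 3, where limma called 15 and 6 for P5 against E18. The t-test takes its spread from the arrays of the 2 stages compared. The limma fit pools the spread over genes and over the arrays of all 4 stages. The cause of these shifts was not tested.

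Same-numbered arrays did not deviate together (correlations of -0.30 to 0.19 over 15 pairs, 1 over 0.1), so the numbers were not taken to pair the samples. With the replicate block, 27 genes were higher and 1 lower, 13 and 4, 29 and 5, and 41 and 3 in the same order of comparisons, and the fall of Sult1c1 from E18 to P5 was -0.38 (adjusted p = 0.058). With each array left out in turn, the higher counts ran from 26 to 29 (E18 against E14), 9 to 19 (P5 against E18), 24 to 31 (P56 against P5) and stayed at 41 (P56 against E14), and the lower counts at 1, from 3 to 6, from 3 to 6, and at 3. The GST medians ran from 0.81 to 0.93, -0.20 to 0.11, 1.01 to 1.37 and 1.77 to 2.15, the UGT medians from 0.81 to 0.96, 0.55 to 0.79, 1.51 to 2.04 and 3.67 to 3.97, and the SULT medians from 0.17 to 0.48, 0.44 to 0.58, 0.24 to 0.65 and 2.79 to 3.12. In both comparisons with P5 the ends of the GST and UGT medians came from leaving out replicates 2 and 3 of P5. The highest counts of higher genes there, 19 and 31, came without replicate 1 of P56. The lowest, 9 and 24, came without replicate 3 and replicate 2 of P5. The SULT medians for P5 against E18 ended at 0.44 without replicate 2 of E18 and 0.58 without replicate 3 of P5. For P56 against P5 they ended at 0.24 without replicate 2 of P5 and 0.65 without replicate 1 of P56. For E18 against E14 the SULT low of 0.17 came without replicate 2 and the high of 0.48 without replicate 1 of E14.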
